A study of Mus musculus with 4 samples.

Results

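The CC chemokines of microglia and macrophages were followed in single-cell transcriptomes of cells isolated with the brain vessels of chronically stressed and control mice. Their members are the 8 genes Ccl2, Ccl3, Ccl4, Ccl6, Ccl7, Ccl9, Ccl12 and Ccl24, taken by symbol from the 31053 genes of the count matrices, and all 8 were found. In the chronic social defeat (CSD) condition, wild-type male C57BL/6 mice aged 12 to 14 weeks lived for 14 days beside an aggressive CD-1 mouse behind a perforated partition, which was lifted for 5 min each day. Home cage (HC) mice, also wild-type C57BL/6 males of that age, spent the same 14 days in a cage whose partition was never lifted, with a CD-1 mouse on its other side in the study's methods (the labels do not name the neighbour). Brains were dissociated by mechanical steps and collagenase II, and cells were enriched with beads against CD31, an endothelial surface protein. The cells of 4 mice were pooled for each library, so that libraries CSD 1, CSD 2, HC 1 and HC 2 stood for 16 mice and each condition had n = 2 libraries. Conditions were compared over libraries, and differences between mice of a pool are not seen.

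CC chemokines are small secreted proteins that draw leukocytes along a gradient by binding receptors of the CCR family. Ccl3 and Ccl4 are macrophage inflammatory proteins, and Ccl3 binds Ccr1. Ccl2, Ccl7 and Ccl12 (monocyte chemoattractant proteins) bind Ccr2, the receptor by which monocytes leave the bone marrow. Ccl6 and Ccl9 belong to a rodent group of ligands of Ccr1, and Ccl24 (eotaxin 2) binds Ccr3 of eosinophils. Microglia are the resident macrophages of the brain tissue, and border-associated macrophages (BAM) those of its meninges, perivascular spaces and choroid plexus.

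The files held 14415 cells (4079 in CSD 1, 2553 in CSD 2, 2849 in HC 1 and 4934 in HC 2) with at least 500 unique molecular identifiers (UMIs, each standing for 1 captured mRNA molecule), at least 250 genes and at most 25% mitochondrial UMIs. The libraries held 27297599 to 30361474 UMIs in all, and pairs of libraries shared 0 to 9 cell barcodes, against 1.07 to 2.96 by chance. Each cell was assigned to the class with the most detected markers among 16 classes with 10 markers each. This gave 12153 assigned cells (84.3%), of which 4354 were microglia (1609, 621, 907 and 1217 in CSD 1, CSD 2, HC 1 and HC 2) and 88 were BAM (36, 5, 38 and 9). Another 1828 cells (12.7%) carried markers of more than 1 class and 434 (3.01%) too few markers. The leading genes of the microglia gate included the gate marker Cx3cr1 and Ctss, C1qb and C1qa, which were not used for gating. The BAM gate was led by Pf4, Ccl7, Mrc1, Wfdc17 and F13a1. Of these, Pf4, Mrc1 and F13a1 are gate markers, which lead by construction, and Ccl7 is a member. Wfdc17 was also among the leading genes of the neutrophil gate, so the BAM label rests on its markers. Microglia of CSD 2 were the deepest, with a median of 4902 UMIs per cell against 1854 to 2698 in the other 3 libraries, so shares of cells with a UMI are given after each cell was thinned to 500 UMIs.

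In GRCm38, the build of the files in the submitters' processing notes, 7 of the 8 genes lie on chromosome 11. Ccl2 (chr11:82035571-82037453, plus strand), Ccl7 (chr11:82045712-82047525, plus strand) and Ccl12 (chr11:82101845-82103400, plus strand) form one group. Ccl9 (chr11:83572919-83578636, minus strand), Ccl6 (chr11:83587882-83593087, minus strand), Ccl3 (chr11:83647844-83649355, minus strand) and Ccl4 (chr11:83662584-83664683, plus strand) form another, which starts 1470 kb from the end of Ccl12. Ccl24 lies alone on chromosome 5 (chr5:135569937-135573049, minus strand). The 250 bases before the annotated RefSeq start were read for the 4 members that the RefSeq table of GRCm38.p6 held (Ccl3, Ccl12, Ccl6 and Ccl9), which cover a microglial and BAM gene, a gene higher in BAM, and a pair seen also in other myeloid cells. Capitals mark the ETS core GGAAGT on either strand, the central letters bound by the macrophage factor PU.1 and its relatives. The windows are chr11:83649379-83649628 (minus strand), chr11:82101595-82101844 (plus strand), chr11:83593088-83593337 (minus strand) and chr11:83578637-83578886 (minus strand), in the order printed.
Ccl3: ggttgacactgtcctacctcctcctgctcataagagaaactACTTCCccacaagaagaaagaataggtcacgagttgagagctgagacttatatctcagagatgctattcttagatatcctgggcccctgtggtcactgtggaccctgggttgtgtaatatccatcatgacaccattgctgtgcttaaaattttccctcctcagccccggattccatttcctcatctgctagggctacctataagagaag
Ccl12: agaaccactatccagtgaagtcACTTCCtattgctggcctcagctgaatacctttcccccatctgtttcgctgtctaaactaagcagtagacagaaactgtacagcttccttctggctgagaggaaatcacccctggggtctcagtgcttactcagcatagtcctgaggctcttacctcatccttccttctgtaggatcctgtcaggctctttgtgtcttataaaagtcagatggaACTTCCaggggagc
Ccl6: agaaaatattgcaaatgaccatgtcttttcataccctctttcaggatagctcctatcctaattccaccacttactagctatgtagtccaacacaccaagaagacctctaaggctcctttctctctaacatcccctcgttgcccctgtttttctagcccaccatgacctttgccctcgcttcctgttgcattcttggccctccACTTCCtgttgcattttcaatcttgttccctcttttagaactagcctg
Ccl9: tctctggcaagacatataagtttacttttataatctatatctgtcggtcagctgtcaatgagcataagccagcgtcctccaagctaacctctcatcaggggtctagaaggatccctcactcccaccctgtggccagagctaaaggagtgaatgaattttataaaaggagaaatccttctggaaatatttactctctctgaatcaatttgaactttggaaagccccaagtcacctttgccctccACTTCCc
The ETS core stood once in the windows of Ccl3, Ccl6 and Ccl9 and at 2 places in that of Ccl12, and 19.8% of 32536 RefSeq promoters of the same length held it. This motif was added after the sequences had been seen. Of 4 longer motifs searched on both strands, NF-kappaB (GGG and CC with any 5 bases between, in 46.0% of promoters) and AP-1 (TGANTCA, in 6.73%) each matched once, both in Ccl9. C/EBP (TTGCNNCAA, in 1.75%) and the longer PU.1 motif (GAGGAAGT, which contains the ETS core, in 2.45%) matched in none of the 4 windows.

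Ccl3 and Ccl4 had most of their UMIs in microglia, and BAM held both genes as well. Levels are in CPM, the UMIs of a gene divided by all UMIs of the class in that library and scaled to 1e6, and are given in the order CSD 1, CSD 2, HC 1 and HC 2. In microglia Ccl3 was at 2140, 1720, 2546 and 1886 CPM, which is 2073 ± 360 (SD, n = 4 libraries). In BAM it was at 2762, 7466, 3551 and 2726 CPM, with the highest value in CSD 2 resting on 5 cells. Every BAM value lay above every microglial one. Ccl4 was at 2374, 2561, 3377 and 3706 CPM in microglia and at 756, 1372, 1443 and 186 CPM in BAM, so that the order of the classes was the opposite of that for Ccl3. The BAM value of Ccl4 in HC 2 rested on 3 UMIs from 9 cells. It lay below the free RNA of that library (265 CPM in barcodes with at most 100 UMIs). Microglia held 88.5% of the 24896 UMIs of Ccl3 and 90.6% of the 34548 UMIs of Ccl4 in all cells.

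Outside these classes both genes were seen in other leukocytes. T cells held Ccl4 at 130, 993, 692 and 704 CPM and Ccl3 at 55.6, 59.1, 264 and 109 CPM (3, 5, 16 and 7 UMIs). In free RNA Ccl3 was at 182, 99.3, 172 and 136 CPM, so T cells lay above it in HC 1 only. The Poisson interval of that HC 1 value (151 to 428 CPM) held the free RNA level. T cell Ccl4 lay below free RNA in CSD 1 (215 CPM) and above it in CSD 2, HC 1 and HC 2. The T cell level of Ccl4 lay below the microglial level in each library. The 11 neutrophils of CSD 1 held Ccl3 at 2556 CPM (25 UMIs, exact 95% Poisson interval 1654 to 3773) and Ccl4 at 3783 CPM (37 UMIs, 2663 to 5214). The few neutrophils of CSD 2 and HC 2 held no UMI of Ccl3, a limit of 600 and 481 CPM (3 counts), and HC 1 had no neutrophil. Neutrophil markers were at or near 0 in microglia, with a summed level of 0 to 1.91 CPM and 8 to 10 of the 10 markers at 0. The reverse, microglial markers in the neutrophil gate, was not measured. Whether microglial RNA contributes to the neutrophil values was therefore not tested. Endothelial cells (EC) held Ccl3 at 8.30 ± 3.64 CPM and Ccl4 at 19.1 ± 13.4 CPM (SD, n = 4). These EC levels lay below those of free RNA, measured in barcodes with at most 100 UMIs, where Ccl3 was at 99.3 to 182 CPM and Ccl4 at 171 to 265 CPM. These intervals and limits, and those that follow, cover counting error only.

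The ligands of Ccr2 were higher in BAM than in microglia. Ccl2 was at 4442, 5270, 3818 and 1549 CPM in BAM and at 298, 186, 345 and 208 CPM in microglia. The classes did not overlap for Ccl2, and the lowest BAM value, in HC 2, rested on 9 cells. Ccl12 was at 1824, 2800, 1310 and 1735 CPM in BAM and at 149, 381, 286 and 382 CPM in microglia, again without overlap. Ccl7 was at 3634, 1208, 2405 and 2540 CPM in BAM. In microglia Ccl7 was at 12.4, 4.98, 15.3 and 10.6 CPM, from 14 to 39 UMIs a library, against 6.67, 1.43, 12.4 and 2.59 CPM in free RNA. The 88 BAM held 58.8% of the 981 UMIs of Ccl7 in all cells, 19.2% of the 4358 of Ccl2 and 8.72% of the 3981 of Ccl12.

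Ccl24, the eotaxin, followed the pattern of Ccl7. It was at 495, 220, 675 and 558 CPM in BAM and at 4.45, 7.11, 7.42 and 3.96 CPM in microglia, from 9 to 20 UMIs a library, against 0.571 to 1.95 CPM in free RNA. BAM held 45.9% of its 255 UMIs. The share of the BAM level that microglia reached was 0.341% to 0.634% for Ccl7 and 0.711% to 3.24% for Ccl24, beside 0.773% to 1.34% for the summed 10 BAM markers. Whether BAM RNA or BAM cells in the microglia gate account for these low counts was not tested.

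Fibroblasts also held Ccl2, with 197, 485, 43.9 and 81.2 CPM from 2 to 29 UMIs a library. Fibroblasts were above microglia in CSD 2 and below in the other 3 libraries, so the order of these classes was not stable. Ccl7 was found in fibroblasts of CSD 1 (138 CPM, 7 UMIs) and in those of no other library. Monocytes that express Ccr2 (3 to 8 cells a library, with MHC class II genes among the leading genes of their gate) held Ccl2 at 0, 62.0, 490 and 355 CPM, which overlapped both fibroblasts and microglia. No UMI of Ccl7, Ccl12 or Ccl24 was found in these monocytes (limit 28.3 CPM over all 4 libraries) or in neutrophils (limit 143 CPM).

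Ccl6 overlapped between microglia and BAM. Ccl9 was higher in microglia than in the BAM of the same library in all 4 libraries, but in each within the counting error of BAM. Both genes had their highest mean levels in rarer myeloid cells. Ccl6 was at 83.9, 83.2, 89.1 and 119 CPM in microglia and at 65.1, 54.9, 81.9 and 186 CPM in BAM, where it rested on 1 to 8 UMIs a library. The microglial and BAM ranges of Ccl6 overlapped. In neutrophils Ccl6 was at 2658 CPM in CSD 1 (26 UMIs, 1736 to 3895), 3197 CPM in CSD 2 (16 UMIs, 1828 to 5192) and 321 CPM in HC 2 (2 UMIs, 38.8 to 1158). Ccr2 monocytes held Ccl6 at 0, 511, 1077 and 532 CPM. Neutrophils and monocytes overlapped in Ccl6, and both lay above every microglial value except in CSD 1, where the 6 monocytes had no UMI of it. Ccl9 was at 94.7, 118, 102 and 91.6 CPM in microglia, 52.1, 110, 51.2 and 62.0 CPM in BAM and 200, 449, 294 and 355 CPM in Ccr2 monocytes. The BAM values of Ccl9 rested on 4, 2, 5 and 1 UMIs. The Poisson interval of each held the microglial value of that library. No Ccl9 UMI was found in 15 neutrophils, a limit of 143 CPM over all libraries, which lay below each monocyte value. Within CSD 1, CSD 2 and HC 2 the neutrophil limits were 307, 600 and 481 CPM. These lay above the monocyte values, so no single library settled the order of the classes for Ccl9. Microglia nevertheless held 79.0% of the Ccl6 UMIs and 83.3% of the Ccl9 UMIs, since monocytes and neutrophils were few.

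**Figure D1:**
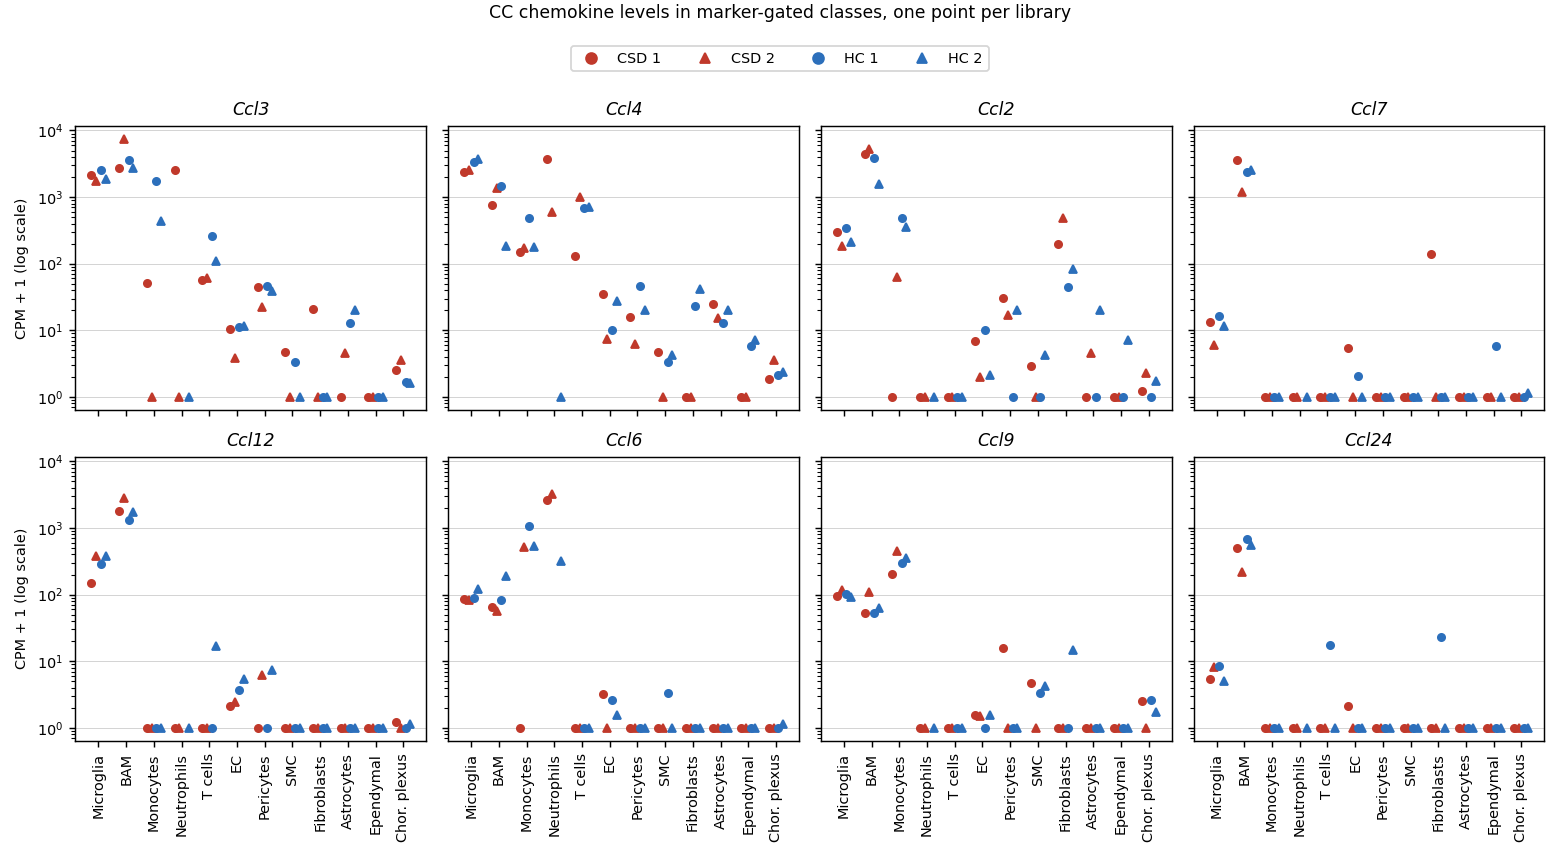
Level of each CC chemokine in 12 marker-gated classes, as CPM + 1 on a log axis, with 1 point per library (red CSD, blue HC; circles library 1, triangles library 2) and points at 1 where no UMI was found. Ccl7 and Ccl24 are highest in BAM in every library, and Ccl3 and Ccl4 are high in microglia and BAM, except Ccl4 in the HC 2 BAM (3 UMIs). Ccl6 is highest in neutrophils and monocytes where they hold a UMI of it (the CSD 1 monocytes hold none, and HC 1 has no neutrophil).

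The difference between microglia and BAM was tested on UMI counts summed per library and class, with the library as a block, in CSD 1 and HC 1, the libraries with at least 10 cells of both classes. With edgeR's quasi-likelihood test (Benjamini-Hochberg adjustment over all genes), 6 of the 8 chemokines passed a threshold of 0.05, against 14.9% of the 8745 genes tested. Only Ccl4 was higher in microglia, as were 9.53% of all genes, and 5 chemokines were lower, as were 5.37%. Of the 5, Ccl24 passed edgeR's filter on low counts only through BAM, so its direction was fixed in advance. The median log2 fold change of the 8 was -1.55, against 0.29 over all genes. Log2 fold changes here are for microglia over BAM, ± the standard error.

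Ccl7 differed most, with a log2 fold change of -7.66 ± 0.17 and an adjusted p too small to be written by edgeR. Ccl24 followed at -6.50 ± 0.35 (adjusted p = 6.48e-73, edgeR), with its direction fixed by the filter on low counts. Ccl2 was at -3.57 ± 0.13 (adjusted p = 1.51e-168, edgeR) and Ccl12 at -2.78 ± 0.15 (adjusted p = 2.39e-75, edgeR). These are the ligands of Ccr2 and the eotaxin, and all were lower in microglia. Ccl4 was higher by 1.51 ± 0.13 on the log2 scale (adjusted p = 2.74e-27, edgeR).

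Ccl3 was lower in microglia by a small margin, -0.32 ± 0.11 (adjusted p = 0.0389, edgeR), and this call was lost in 11 of 15 alternatives, among them the fit to all 4 libraries (-0.39 ± 0.34, adjusted p = 0.514, edgeR). Ccl6 (0.33 ± 0.42, 95% interval -0.49 to 1.16) and Ccl9 (1.05 ± 0.46, 0.15 to 1.94, adjusted p = 0.116 with edgeR) did not pass, though Ccl9 did with at least 5 markers per cell (1.59, adjusted p = 0.0245 with edgeR). With all 4 libraries, where CSD 2 and HC 2 added 5 and 9 BAM, 12.2% of 9070 genes passed (8.31% higher and 3.93% lower in microglia) and the 5 other calls were made again. Ccl4 was then at 2.12 ± 0.37, Ccl2 at -3.34 ± 0.36, Ccl7 at -7.38 ± 0.43, Ccl12 at -2.25 ± 0.34 and Ccl24 at -6.05 ± 0.40. Ccl24 entered this fit too only through BAM. The BAM values of the first fit come from 36 and 38 cells. The standard errors of both fits rest on a variance shared over all genes, not on the spread of each gene between libraries. The small p-values therefore do not measure that spread, and the standard error of Ccl3 was 0.11 with 2 libraries and 0.34 with all 4. Microglial markers in BAM summed to 1053 to 2196 CPM, which is 6.40% to 13.4% of their level in microglia, and their part in the BAM values of Ccl3 and Ccl4 was not tested.

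**Figure D2:**
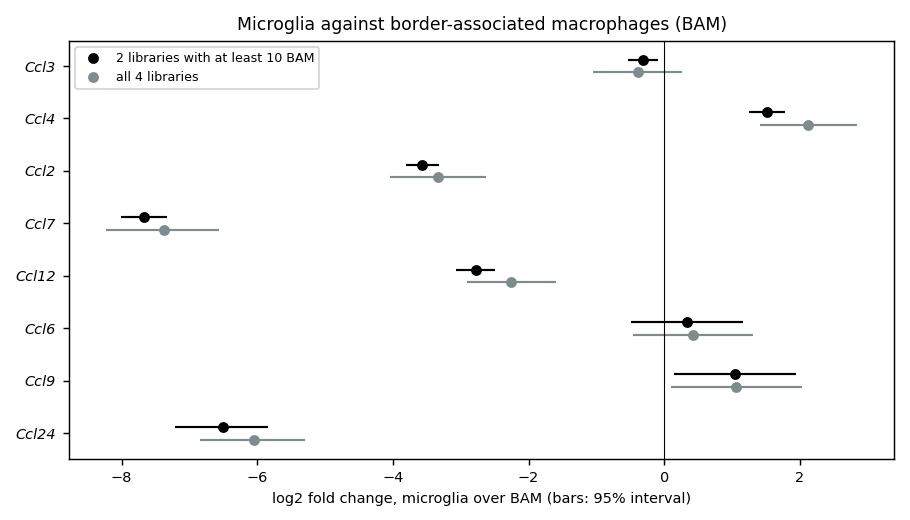
Log2 fold change of each CC chemokine, microglia over BAM, with 95% intervals, from the 2 libraries with at least 10 BAM (black) and from all 4 libraries (grey). Ccl2, Ccl7, Ccl12 and Ccl24 lie far to the left of 0 and Ccl4 to the right in both fits, while the interval of Ccl3 crosses 0 with 4 libraries. Ccl24 passed the filter on low counts only through BAM, which fixed its direction.

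Other genes of the same signalling system were compared in the same way. Of 13 other CC chemokines, 2 had enough counts to be tested, and Ccl8, another gene of the monocyte chemoattractant family, was lower in microglia (0.936 CPM against 778 CPM in BAM, normalised means, adjusted p = 4.61e-127 with edgeR). Among the CC chemokine receptors, Ccrl2, an atypical receptor, was higher in microglia by 2.60 ± 0.34. Ccr1, a receptor of Ccl3, Ccl6 and Ccl9, was lower in microglia, at -3.37 ± 0.73. Neither Ccl8 nor Ccr1 passed the filter on low counts by its microglial counts, so the filter fixed their direction. The receptors of the Ccr2 ligands and of Ccl24 (Ccr2 and Ccr3) did not pass the filter on low counts.

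All 13 NF-kappaB subunits and feedback inhibitors were tested, since NF-kappaB is a known activator of inflammatory chemokine genes, and 7 were higher and none lower in microglia. The subunits Rel (2.50 ± 0.22), Rela (2.16 ± 0.58) and Nfkb1 (2.10 ± 0.29) and the inhibitor Tnfaip3 (2.04 ± 0.25) changed most among those that passed. The median of the list was 2.10, against 0.29 over all genes, of which 9.53% were higher and 5.37% lower. Of 17 inflammatory cytokines and CXC chemokines, 10 were tested, 4 were higher and 2 lower in microglia (list median 0.98). Il1a (6.12 ± 0.40) and Il1b (3.51 ± 0.99), which encode interleukin 1, were higher, and the neutrophil attractants Cxcl1 (-6.10 ± 0.61) and Cxcl2 (-4.20 ± 0.12) were lower. Il1b passed the filter on low counts only through microglia and Cxcl1 only through BAM, so their directions were fixed.

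The immediate-early and dissociation list, 22 genes that respond to the isolation of cells, was measured because the brains were digested with enzymes. In microglia 12 of its genes were higher than in BAM and 4 were lower, against 9.53% and 5.37% of all genes. The list median was 0.43, against 0.29 over all genes. Nr4a1 (2.29 ± 0.36) and Atf3 (1.53 ± 0.13) were higher, and Hspa1b (-2.09 ± 0.47) and Hspa1a (-1.88 ± 0.17), near-identical copies whose reads may be split, were lower. With all 4 libraries 6 were higher and 2 lower, against 8.31% and 3.93% of all genes, with a list median of 0.49 against 0.42. The list summed to 30730 to 36675 CPM in microglia and 30827 to 40273 CPM in BAM, and the ranges overlapped. The part of cell isolation in the chemokine levels was not tested.

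Whether CSD changed the chemokines of microglia was tested over the 4 libraries. None of the 8 passed edgeR's quasi-likelihood test (adjusted p = 1.0 for each), nor did any of the 9845 genes tested (0% called, 129 genes at an unadjusted p under 0.05, and 1 gene called by DESeq2). The median log2 fold change of the 8, CSD over HC, was -0.21, against 0.0011 over all genes.

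After TMM normalisation, Ccl4 was the chemokine whose conditions did not overlap. It was at 2295 and 2758 CPM in the CSD and 3251 and 3790 CPM in the HC libraries, a log2 fold change of -0.48 ± 0.31 (95% interval -1.22 to 0.26). A CSD pair wholly below the HC pair was found for 1 of the 8 chemokines and for 11.8% of all genes tested (a CSD pair wholly above for none of the 8 and for 10.6%). Ccl4 kept this sign in all 14 alternatives, from -0.62 to -0.34, and passed in none. The interval includes both no change and a change of more than 1 on the log2 scale.

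Ccl3 was at 2069 and 1852 CPM in CSD and 2451 and 1929 CPM in HC (normalised), a log2 fold change of -0.16 ± 0.30 (-0.88 to 0.56). Ccl2 was at 288 and 200 CPM in CSD and 332 and 213 CPM in HC, -0.16 ± 0.33 (-0.95 to 0.63). For both genes the libraries numbered 1 were higher than those numbered 2 in each condition, and the conditions overlapped. Ccl12 was at 144 and 411 CPM in CSD and 275 and 390 CPM in HC, -0.26 ± 0.49 (-1.44 to 0.91), so that the CSD libraries lay on both sides of the HC libraries.

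Ccl6 (-0.28 ± 0.25), Ccl9 (0.19 ± 0.25), Ccl7 (-0.53 ± 0.44) and Ccl24 (0.06 ± 0.51) overlapped between conditions too, with intervals of -0.89 to 0.32, -0.41 to 0.78, -1.59 to 0.51 and -1.15 to 1.27. Without normalisation between libraries (CPM of class totals), Ccl6 did not overlap, at 83.9 and 83.2 CPM in CSD and 89.1 and 119 CPM in HC. How often all genes separate on that scale was not measured, so no more is read from it. Among the lists, no tested gene of the other CC chemokines (3), the receptors (3), the NF-kappaB list (13), the cytokines (11) or the immediate-early list (22) passed in microglia, and the list medians lay between -0.09 and 0.14.

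**Figure D3:**
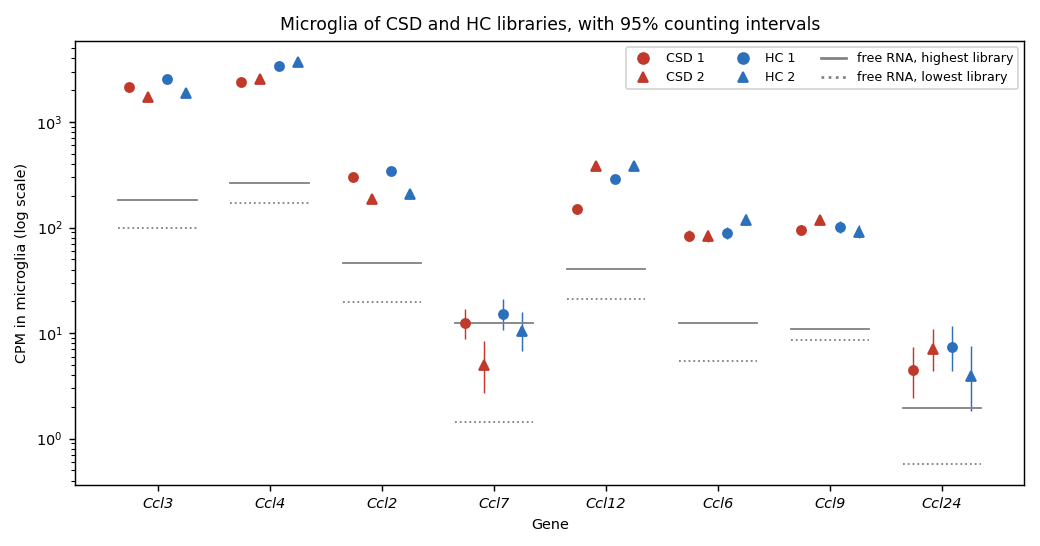
CPM of each CC chemokine in the microglia of each library, on a log axis, with 95% Poisson counting intervals (often smaller than the symbol) and the range of free RNA levels over libraries as grey lines. Ccl4 and, by a smaller margin, Ccl6 separate the red CSD points from the blue HC points in these CPM, and Ccl6 does not after TMM normalisation. Ccl7 lies in the range of free RNA over libraries in 3 of 4 libraries, but above the free RNA of its own library in all 4.

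**Figure D4:**
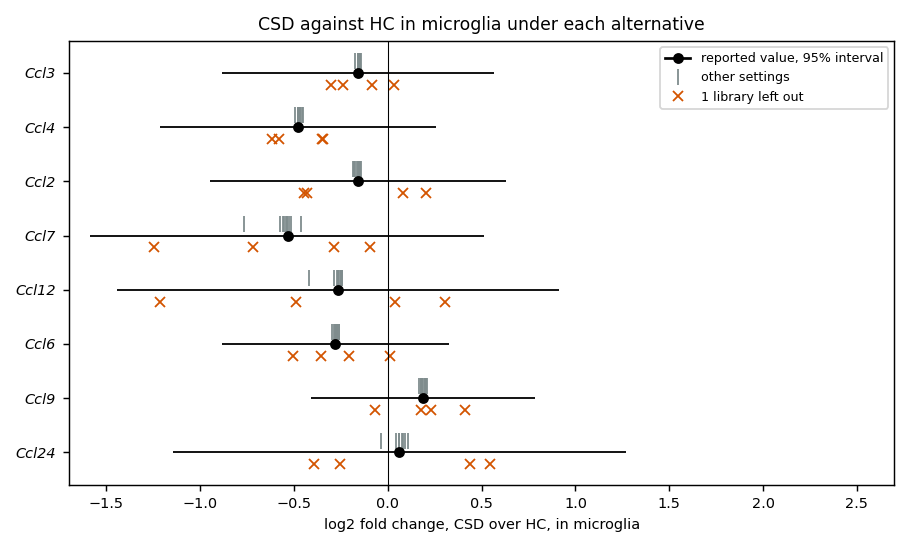
Log2 fold change, CSD over HC, of each CC chemokine in microglia as reported (black, 95% interval), under 10 other settings (grey ticks) and with 1 library left out (orange crosses). The interval of every gene includes 0, and leaving out 1 library moves the values far more than the other settings do.

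The share of microglia with a UMI of each gene was compared after thinning to 500 UMIs per cell. Ccl3 was detected in 48.5%, 34.3%, 47.1% and 41.4% of microglia, in the order used above, and Ccl4 in 43.6%, 35.8%, 44.0% and 50.6%. Before thinning the shares were 61.7% to 72.7% and 62.8% to 69.1%. Ccl4 was thus detected in a lower share of both CSD libraries than of either HC library (exact two-sided permutation test p = 0.333, the smallest that 2 against 2 libraries allow, adjusted p = 0.667 over the 8 genes), though CSD 1 and HC 1 lay within each other's binomial intervals (41.2% to 46.1% and 40.7% to 47.3%). Ccl12 was detected in 5.72%, 9.50%, 10.8% and 13.5%, also without overlap (exact permutation p = 0.333, adjusted p = 0.667), which differs from its overlapping CPM. Ccl7 too was detected in a lower share of both CSD libraries (0.311%, 0.322%, 0.551% and 0.740%, from 5, 2, 5 and 9 cells). Ccl9 was detected in a higher share of both (4.35%, 5.31%, 3.53% and 4.11%). Each had an exact permutation p = 0.333 and adjusted p = 0.667. The CSD and HC shares of the other 4 genes overlapped. How often all genes separate in this way was not measured, so no more is read from these separations.

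Ccl2 was detected in 11.3%, 5.80%, 11.4% and 7.48% of thinned microglia, Ccl6 in 3.60% to 4.83% and Ccl24 in 0.124% to 0.493%. For comparison, EC had a UMI of Ccl3 in 0.178% to 0.997% and of Ccl4 in 0.534% to 1.77% of cells at the same depth. For Ccl7 the EC shares were 0 to 0.266% and for Ccl24 0 to 0.0886%. The thinned BAM shares were 36.8% to 80% for Ccl3, 13.2% to 80% for Ccl4, 33.3% to 66.7% for Ccl2, 28.9% to 58.3% for Ccl7 and 26.3% to 60.0% for Ccl12, with the 80% being 4 of 5 cells. Exact permutation tests of CSD against HC in microglia gave p = 0.333 to 1.0 for the 8 genes (adjusted 0.667 to 1.0).

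Ccl4 was detected more often in microglia with Ccl3 than in those without it. Among thinned microglia with a UMI of Ccl3, 59.7%, 56.8%, 61.6% and 71.6% also had one of Ccl4. Among those without Ccl3 it was 28.5%, 24.8%, 28.3% and 35.8%. The gap was of like size in all 4 libraries, CSD and HC alike. Cells with both genes made up 29.0%, 19.5%, 29.0% and 29.7% of microglia, and cells with neither 36.8%, 49.4%, 37.9% and 37.6%. CSD 2 had the lowest share with both genes and the highest with neither. The tenth of microglia with the most UMIs of the gene held 44.6% to 56.6% of the Ccl3 UMIs and 51.2% to 59.1% of the Ccl4 UMIs. The highest cell had 23 UMIs of Ccl3 and 33 of Ccl4 among its 500, both in HC 1.

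Other pairs were also compared. Ccl12 was found in 8.79%, 25%, 19.4% and 26.4% of microglia with Ccl2, against 5.33%, 8.55%, 9.70% and 12.4% of those without. Ccl2 was found in 14.6%, 7.51%, 15.7% and 9.13% of microglia with Ccl3, against 8.21%, 4.90%, 7.50% and 6.31% of those without. The share was thus higher in the cells with the partner gene in every library for both pairs. Ccl6 was found in 3.20% to 5.16% of cells with Ccl3 and 3.99% to 4.66% of those without, and was higher with Ccl3 in 1 library of 4. In BAM of the 2 larger samples, Ccl7 was found in 75.0% of cells with Ccl2 and 25% of those without in CSD 1, and in 50% and 10.0% in HC 1.

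Microglia with both Ccl3 and Ccl4 also held more UMIs of inflammatory cytokines and CXC chemokines. At 500 UMIs per cell, the 17 genes of that list summed to 1.07, 0.909, 1.60 and 1.34 UMIs per cell with both genes and to 0.549, 0.515, 0.456 and 0.651 with neither. The 13 NF-kappaB genes summed to 2.89, 3.07, 3.13 and 2.88 UMIs with both and 2.38, 1.89, 1.64 and 2.28 with neither. The 22 immediate-early and dissociation genes moved the same way, at 19.3, 17.9, 19.5 and 16.9 UMIs with both and 17.3, 11.3, 12.7 and 14.6 with neither. All 3 lists were higher in the cells with both genes in all 4 libraries. These are cells sorted by their own counts, so no test was made, and the part of cell isolation was not tested.

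**Figure D5:**
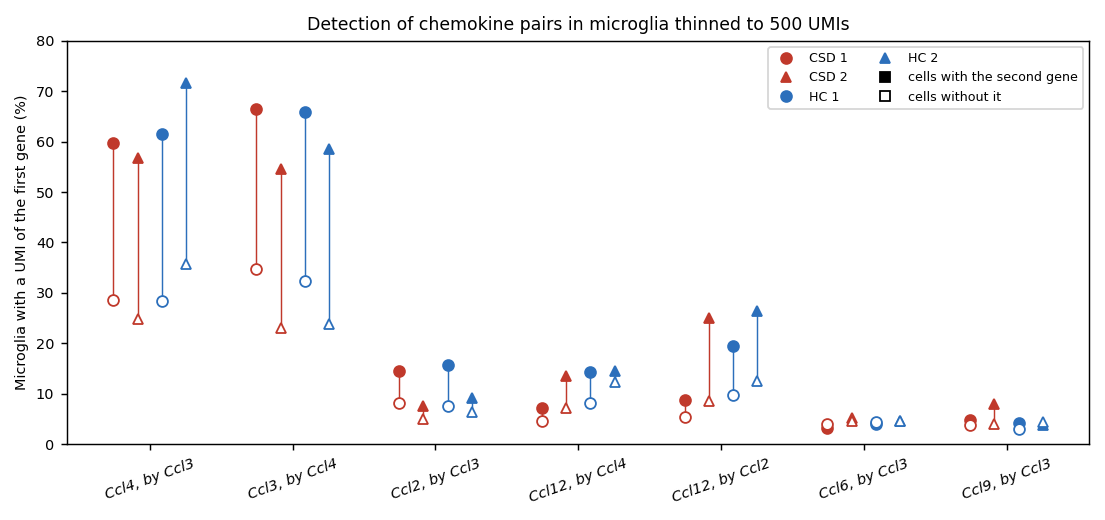
Share of microglia (thinned to 500 UMIs) with a UMI of the first gene, among cells with (filled) and without (open) a UMI of the second gene, for 7 pairs and 4 libraries (red CSD, blue HC). Of the pairs plotted, Ccl3 and Ccl4 show the widest gaps, in both directions, and Ccl6 shows none that all libraries share.

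In EC, 3 of the 8 chemokines (Ccl3, Ccl4 and Ccl2) had enough counts to be tested between CSD and HC and none passed, against 0.071% of 9866 genes (7 genes, all higher in CSD, and 842 at an unadjusted p under 0.05). Their log2 fold changes were -0.73 ± 0.53, 0.21 ± 0.69 and -0.55 ± 0.99 (CSD over HC), and their levels were under that of free RNA. Ccl3 lay lower in both CSD libraries than in both HC libraries, as did 19.3% of all genes (20.2% lay higher). Without CSD 1, Ccl4 was at -1.46 (adjusted p = 0.0372, edgeR) and 532 genes passed. Of the lists, Cxcl1, a CXC chemokine that attracts neutrophils, was higher in the CSD EC by 1.77 ± 0.20 on the log2 scale (adjusted p = 0.0267, edgeR). The EC list medians were 0.61 for the immediate-early list (22 tested), 0.53 for NF-kappaB (10) and 0.70 for the cytokines (6). That of the other CC chemokines (2) was -0.079, and that of all genes 0.0025. No other list gene passed, and the part of cell isolation in the Cxcl1 difference was not tested. In pericytes no chemokine of the 8 had enough counts, and 0% of 2310 genes passed (114 at an unadjusted p under 0.05 with edgeR, 0 called by DESeq2). In BAM no test was made, since CSD 2 and HC 2 had 5 and 9 cells, and each library's values stand above.

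The genes most like each chemokine were sought over 36 sums (9 classes in 4 libraries) by Pearson's r of log2(CPM + 10) among 12020 genes. Sums of 1 class, and of 1 library, are not independent, so r is a description. The members were chosen as chemokines of microglia and macrophages, so likeness to myeloid genes follows from that choice. Ccl3 was most like Cd86 (0.96), Evi2a (0.96) and Pde3b (0.95), Ccl4 like Ptpre (0.98), Fcer1g (0.97) and Laptm5 (0.96), and Ccl2 like Olfml3 (0.90), Vav2 (0.88) and Tmem119 (0.87). Ccl12 was most like Gpr84, Il1b and Tifab (0.98 each), Ccl6 like Tnfrsf17, Hk3 and Lilra5 (0.997 each) and Ccl9 like C5ar1 (0.99), Upk1b (0.97) and Fcrls (0.97). Cd86, Fcer1g, Laptm5, Tmem119 and Fcrls are genes of microglia and other myeloid cells, and Olfml3, Tmem119 and Fcrls are microglia gate markers. By the mean over libraries microglia held the highest level of these 6 chemokines among the 9 classes. BAM, Ccr2 monocytes and neutrophils are not among those 9 classes. Ccl7 (133 UMIs) and Ccl24 (65 UMIs) were too sparse without BAM to be read. With BAM added (40 sums), Ccl24 was most like Ms4a7, Ifi207 and F13a1 (0.98, 0.97 and 0.97) and Ccl7 like Ifi207, Cybb and F13a1 (0.96 each), of which Ms4a7 and F13a1 are BAM markers. Ccl2 was then most like Ftl1 (0.91), Hexa (0.90) and Ctsb (0.89), and Ccl12 like Adgre1, Clec4a2 and C5ar1 (0.98 each). For Ccl2 and Ccl12, none of these was among the genes found without BAM.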

How the data were processed

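Single-cell RNA of brain vascular-associated cells was measured in 4 libraries (2 CSD, 2 HC). The authors deposited UMI counts, whole numbers for each gene in every barcode, which came from Cell Ranger (4.0 in the submitters' processing notes, 3.1.0 in the matrix header) on GRCm38, without cell calling or normalisation. All columns were used. Cells, classes and thresholds are given in the report. A class needed at least 3 of its markers and a second class at most 0.5 of the best count. Scrublet (in scanpy 1.11.5, expected share 6%) marked 4, 11, 35 and 73 cells as doublets in CSD 1, CSD 2, HC 1 and HC 2, under 0.5% in both CSD libraries. The main results include them, and 1 alternative drops them.

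Sums of UMI counts over the cells of a class in a library were tested, two-sided, with edgeR 4.0.16 (filterByExpr, TMM, glmQLFit, glmQLFTest, R 4.3.3), with DESeq2 1.42.0 as an alternative. Shares used exact permutation tests over libraries, and binomial and Poisson intervals are exact at 95%. On simulated counts the CSD comparison in microglia recovered 93 of 100 genes changed by 2 and 16 of 100 changed by 1 on the log2 scale (9245 genes), and that of microglia with BAM 82 and 18 of 100 (7683 genes). Both simulations used the spread between microglia libraries (coefficient of variation 0.228), the same for every gene, not that of the BAM sums. The changed genes were drawn from those above a floor of expression, so recovery of sparser or more variable genes was not measured. Recovery at the spread of BAM was not measured.

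The members, lists and tests were chosen with earlier results of these data known. The text names the members, up to 4 genes per list that passed (largest log2 fold change) and the 3 genes most like each member. Leading genes of the 2 gates are given too, and some of them are gate markers. Some genes that the rule covers are left out of the text. Replicates are pools of different mice.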

Additional observations from a re-analysis of the deposited data

How the results depend on the processing

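The calls of Ccl2, Ccl4, Ccl7, Ccl12 and Ccl24 between microglia and BAM kept direction and side of the threshold in all 15 alternatives. In the main fit the direction of Ccl24 was fixed by the filter on low counts. Ccl3 lost its call in 11, with adjusted p (edgeR or DESeq2) from 0.00984 to 0.890 over all 15, and Ccl9 passed in 1 (lowest adjusted p = 0.0245). Genes called there were 1303, against 394 with DESeq2, 725 with at most 10% mitochondrial UMIs and 462 to 1070 with 1 library left out of all 4 (462 without HC 1 and 466 without CSD 1, the fits with fewest BAM). Leaving 1 library out of the 2-library fit leaves 1 pair and no test, so all 4 libraries were used for this, an alternative chosen after seeing the data, as was adding BAM to the search for like genes.

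For CSD against HC in microglia, 0 genes were called, against 23 with no low-count filter, 1 with DESeq2, 8 with the replicate number as a block and 3 to 31 with 1 library left out (31 without CSD 1). No chemokine passed in any. Ccl24 turned to -0.037 with at most 10% mitochondrial UMIs. Leaving out 1 library turned Ccl12 to 0.31 (without CSD 1) and 0.04 (HC 2), Ccl2 to 0.08 (CSD 2) and 0.20 (HC 1), Ccl9 to -0.069 (CSD 2), Ccl24 to -0.39 (CSD 2) and -0.26 (HC 2), Ccl3 to 0.030 (HC 1) and Ccl6 to 0.011 (HC 2), so these signs rest on single libraries. The leave-one-out ranges were -0.30 to 0.030 for Ccl3, -0.45 to 0.20 for Ccl2, -1.21 to 0.31 for Ccl12, -0.50 to 0.011 for Ccl6, -0.069 to 0.41 for Ccl9 and -0.39 to 0.54 for Ccl24.

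In EC 7 genes were called, against 64 with DESeq2, 18 with at least 1000 UMIs per cell, 12 with the replicate block and 11 to 532 with 1 library left out (532 without CSD 1, 66 without CSD 2, 25 without HC 1). EC Ccl4 turned to -0.37 with at least 5 markers, -1.46 without CSD 1 and -0.35 without HC 1, and EC Ccl2 to 0.27 without CSD 2 and 1.64 without HC 1 (ranges with 1 library left out -1.46 to 1.15 and -2.32 to 1.64). In pericytes 0 were called, against 3 with no low-count filter, 2 with at most 10% mitochondrial UMIs or the replicate block, 1 with RLE factors, at least 1000 UMIs, a complexity of at least 0.8, or 2 or 5 markers, and 1 to 23 with 1 library left out (23 without CSD 1). The cause of these moves was not tested.

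The CSD minus HC difference in thinned shares, in percentage points, turned sign for Ccl3 from -2.83 to 3.33 unthinned and 0.284 at 1000 UMIs (-9.95 to 4.29 with 1 library left out), for Ccl2 from -0.863 to 0.104 unthinned (-3.62 to 1.89), for Ccl6 from -0.178 to 2.34 unthinned (-0.791 to 0.435), for Ccl9 from 1.01 to -0.434 at 1000 UMIs, and for Ccl24 from -0.108 to 0.522 unthinned (-0.288 to 0.0712). Ccl4, Ccl7 and Ccl12 kept their sign. The labels do not say whether libraries with the same replicate number were prepared together. The deviations of same-numbered microglia libraries had a correlation of 0.43, EC of 0.06 and pericytes of 0.23. The main CSD fits left the number out, and the block changed no chemokine's call. Whether same-numbered libraries share a preparation was not tested.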

Other observations

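Chemokine UMIs were also found in cells outside the named classes. The 434 cells with too few markers held Ccl3 at 229, 2122, 950 and 693 CPM and Ccl4 at 287, 1006, 2188 and 1904 CPM in CSD 1, CSD 2, HC 1 and HC 2, above the free RNA level of both genes in every library. In CSD 1 the excess was within counting error. The Poisson intervals there (152 to 332 CPM for Ccl3, 200 to 399 CPM for Ccl4) held the free RNA levels of 182 and 215 CPM. The 1828 cells with markers of more than 1 class held 25.7% of all Ccl7 UMIs and 26.7% of all Ccl24 UMIs, against 6.26% of those of Ccl3 and 5.66% of those of Ccl4. These cells entered no comparison.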
